A study of Oryctolagus cuniculus with 6 samples.

Results

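The corneal fate genes described here are 9 transcription factors and 1 secreted ligand that are tied to corneal epithelial identity, namely PAX6, WNT7A, FOXC1, KLF4, KLF5, EHF, ELF3, GRHL2, GRHL3 and IRX4. They were taken by name, without a cutoff on their values but with earlier results of these data known, and all 10 were among the 22190 genes of the count table. RNA-seq was performed on primary limbal stem cells (LSCs), the cells that grew out of rabbit limbal explants in keratinocyte medium. The fresh group, with 3 libraries, came from fresh tissues. The preconditioned group, also with 3 libraries, came from corneas that spent 7 days in liquid nitrogen, where the freezing medium held serum, DMSO and the inflammatory cytokine IL-1β at 10 ng/mL. Both groups went through the same explant culture. Freezing and the cytokine came together in the preconditioned group and cannot be told apart. Strain, age and the animal behind each library were not given in the sources used here, so that p-values measure the spread between these libraries, which may be technical.

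PAX6 is a paired-box and homeobox factor that directs the development of the eye, and the loss of a single copy causes aniridia with a failing corneal surface. In LSCs, the ligand WNT7A acts upstream of PAX6, and cells that lose either of them turn from a corneal to a skin-like epithelium. FOXC1 is a forkhead factor of the anterior segment, KLF4 and KLF5 are Krüppel-like zinc finger factors, EHF and ELF3 are ETS factors found mainly in epithelia, and GRHL2 and GRHL3 are grainyhead factors that maintain epithelial junctions and barrier.

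The libraries had 31952352 to 34327534 counts on genes. On the first principal component of log2 CPM, which took up 50.4% of the variance, fresh LSCs were at −53.1 to −41.1, preconditioned replicate 1 at 8.13, and preconditioned replicates 2 and 3 at 58.3 and 70.4. Calls of the corneal fate genes and counts of the gene lists are therefore given with and without preconditioned replicate 1. This library was chosen on these same data as the nearest to the fresh group, so that leaving it out widens group differences by that choice. Without it, the genes called rose from 344 to 1546. When any other library was left out, 14 to 72 genes were called, with 0 corneal fate genes and 0 or 1 gene of the lists. KRT5, a keratin of basal epithelial cells, was expressed at 7337 to 11740 CPM in all 6 libraries, and KRT3, a keratin of differentiated corneal epithelium, at 239 to 2655 CPM. CPM are gene counts relative to the library size after scaling by the trimmed mean of M values (TMM), whereas FPKM are also divided by gene length and were not scaled by TMM. Changes are given as log2 fold changes, preconditioned against fresh, and below as log2 changes.

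Per gene length, the corneal fate genes spanned a wide range of levels in fresh LSCs. ELF3 had the highest mean, 91.4 ± 22.4 FPKM (SD, n = 3), followed by EHF with 89.0 ± 13.2 FPKM and KLF5 with 73.0 ± 6.59 FPKM. The libraries of these neighbours overlapped, so that their order was not larger than the spread. PAX6 followed at 44.8 ± 4.74 FPKM and KLF4 at 36.1 ± 3.35 FPKM, each apart from its neighbours. PAX6 thus exceeded 88.1% of the tested genes in mean FPKM. GRHL2 (17.1 ± 2.46 FPKM) and FOXC1 (13.3 ± 2.22 FPKM) overlapped, as did GRHL3 (7.57 ± 1.68 FPKM) and WNT7A (7.11 ± 1.44 FPKM). These pairs were apart from KLF4 and from each other. WNT7A stood above 53.8% of the tested genes. IRX4 was listed at 0 FPKM in all fresh libraries.

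**Figure D1:**
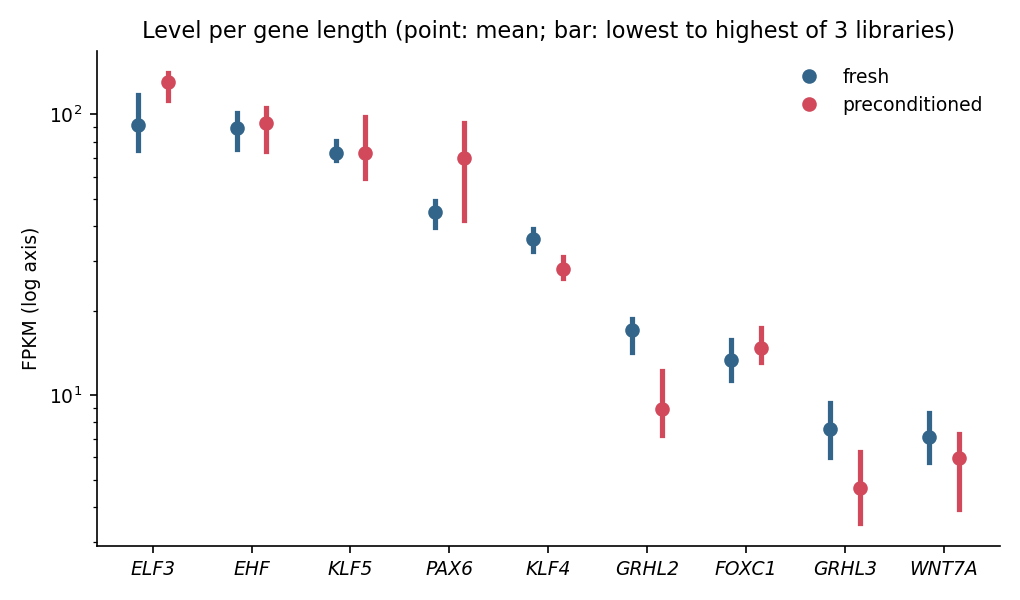
Level per gene length (FPKM, log axis) of the 9 detected corneal fate genes in the fresh (blue) and preconditioned (red) group. Points are means and bars run from the lowest to the highest of 3 libraries; the highest mean is that of ELF3 in both groups, and the PAX6 bar of the preconditioned group runs from 41.9 to 93.3 FPKM.

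In preconditioned LSCs, the order of levels differed in places. ELF3, at 130 ± 15.1 FPKM (SD, n = 3), no longer overlapped with EHF at 92.9 ± 16.6 FPKM. PAX6, at 69.6 ± 25.9 FPKM, overlapped with KLF5 at 72.9 ± 21.5 FPKM. FOXC1 (14.7 ± 2.29 FPKM) came before GRHL2 (8.92 ± 2.81 FPKM) without overlap. WNT7A (5.95 ± 1.77 FPKM) overlapped with both GRHL2 and GRHL3 (4.67 ± 1.45 FPKM), its neighbours in the order.

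PAX6 was expressed at 218, 201 and 174 CPM in fresh replicates 1, 2 and 3 and at 203, 376 and 459 CPM in preconditioned replicates 1, 2 and 3. Preconditioned replicate 1 lay inside the fresh range, whereas the other preconditioned libraries lay far above it. The mean was 346 ± 131 CPM (SD, n = 3) in the preconditioned group and 198 ± 21.9 CPM (SD over 3 libraries) in the fresh group, a log2 change of 0.81 (standard error 0.28, 95% confidence interval 0.14 to 1.48). This did not pass the adjustment over all genes (adjusted p = 0.11 in edgeR's quasi-likelihood fit). Without preconditioned replicate 1, the log2 change of PAX6 was 1.07 (adjusted p = 0.006). Without preconditioned replicate 3, it was 0.56 (adjusted p = 0.25). In bulk RNA, a change in the number of PAX6-expressing cells and a change in the RNA per cell cannot be told apart. In the assembly mOryCun1.1, the gene ELP4 overlaps PAX6, and the strand setting of the counting was not given. ELP4 had a mean of 13.7 CPM and a log2 change of 0.20 (adjusted p = 0.45).

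WNT7A was expressed at 26.8, 21.3 and 17.8 CPM in the fresh libraries and at 24.7, 14.1 and 22.8 CPM in the preconditioned libraries. The groups overlapped, and the lowest value was that of preconditioned replicate 2. The log2 change was −0.10 (standard error 0.25, adjusted p = 0.82), with a 95% confidence interval of −0.69 to 0.49, so that the cutoff of 1 lies outside the interval in both directions. The sign of this difference turned when fresh replicate 1 or preconditioned replicate 2 was left out. The ratio of PAX6 to WNT7A counts within a library, on the log2 scale, was 3.02 to 3.29 in the fresh group. In preconditioned replicate 1 it was 3.04, and in the other preconditioned libraries 4.74 and 4.33. The exact permutation p of the ratio was 0.3 (adjusted p = 0.3 over the 4 ratios tested), and 3 libraries against 3 allow no p below 0.1.

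FOXC1, which also acts in the mesenchyme of the anterior segment, was expressed at 32.4, 44.8 and 36.5 CPM in the fresh libraries and at 54.1, 45.2 and 41.6 CPM in the preconditioned libraries. The groups overlapped, with the highest value in preconditioned replicate 1. The log2 change was 0.31 (standard error 0.16, 95% confidence interval −0.08 to 0.69, adjusted p = 0.24 in edgeR's quasi-likelihood fit). The summed CPM of 13 stromal cell markers was 653 to 1502 in fresh LSCs and 1538 to 2651 in preconditioned LSCs, with no defining marker at 0. COL1A1 carried this separation, since the sum without it was 596 to 1393 in fresh and 1001 to 1959 in preconditioned LSCs, which overlapped. The part of stromal cells in the FOXC1 values was not tested.

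**Figure D2:**
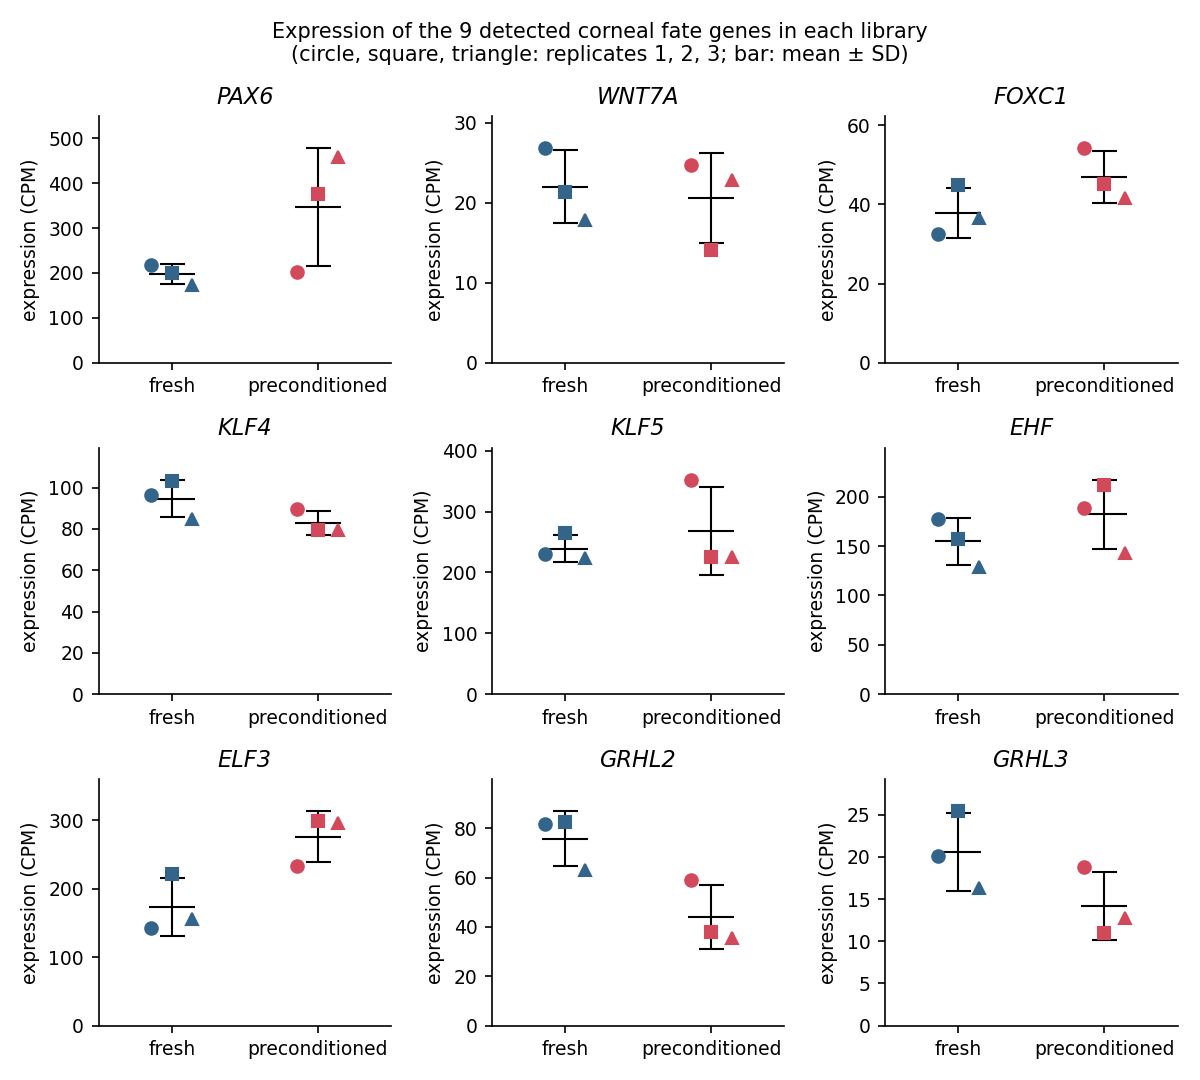
Expression (CPM, linear axes from 0) of the 9 detected corneal fate genes in each library, with the mean and SD of each group; circles, squares and triangles mark replicates 1, 2 and 3. For PAX6, the circle of the preconditioned group (203 CPM) sits among the fresh libraries, and for GRHL2 all preconditioned libraries (35.7 to 59.1 CPM) sit below all fresh libraries (63.0 to 82.7 CPM).

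KLF4, which supports the barrier and the differentiation of the corneal epithelium, varied least among the 9 genes in the preconditioned group, with a coefficient of variation of 7.12%. It was expressed at 96.2, 103 and 85.0 CPM in the fresh libraries and at 89.6, 79.5 and 79.3 CPM in the preconditioned libraries. Preconditioned replicate 1 overlapped with the fresh group, and the other preconditioned libraries lay just below it. The log2 change was −0.19 (standard error 0.11, 95% confidence interval −0.46 to 0.08, adjusted p = 0.29).

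KLF5, a relative of KLF4 that is linked to proliferating basal cells, stood out in a single library. It was expressed at 231, 264 and 224 CPM in the fresh libraries, at 352 CPM in preconditioned replicate 1, and at 225 and 226 CPM in preconditioned replicates 2 and 3. The latter were thus within the fresh range. The log2 change was 0.16 (standard error 0.19, 95% confidence interval −0.30 to 0.62, adjusted p = 0.61), and its sign turned without preconditioned replicate 1 (−0.10) and when TMM was replaced by library size alone (−0.003). The log2 ratio of KLF4 to KLF5 counts was −1.26 to −1.39 in the fresh libraries and −1.97, −1.50 and −1.51 in preconditioned replicates 1, 2 and 3. The groups did not overlap, and the exact permutation p was 0.1, the smallest possible here (adjusted p = 0.27 over the 4 ratios).

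ELF3 was expressed at 142, 221 and 155 CPM in the fresh libraries and at 233, 299 and 296 CPM in the preconditioned libraries. All preconditioned libraries lay above all fresh libraries, although preconditioned replicate 1 was close to fresh replicate 2. The mean was 276 ± 36.9 CPM (SD over 3 libraries) against 173 ± 42.2 CPM (SD over 3 libraries), a log2 change of 0.68 (standard error 0.19, 95% confidence interval 0.22 to 1.13). The adjusted p of ELF3 was 0.075 in edgeR's fit, and it was 0.036 without preconditioned replicate 1, at a log2 change of 0.77. ELF3 was the only corneal fate gene of the 9 tested that was above the fresh range in each preconditioned library.

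EHF, the other epithelial ETS factor, was expressed at 177, 157 and 129 CPM in the fresh libraries and at 189, 212 and 143 CPM in the preconditioned libraries. The groups overlapped, with preconditioned replicate 3 inside the fresh range. The log2 change was 0.23 (standard error 0.18, 95% confidence interval −0.19 to 0.66, adjusted p = 0.41). The log2 ratio of EHF to ELF3 counts was 0.31, −0.49 and −0.26 in the fresh libraries and −0.30, −0.49 and −1.04 in the preconditioned libraries, which overlapped (exact permutation p = 0.2, adjusted p = 0.27).

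GRHL2 was expressed at 81.7, 82.7 and 63.0 CPM in the fresh libraries and at 59.1, 37.8 and 35.7 CPM in the preconditioned libraries. All preconditioned libraries lay below all fresh libraries, and preconditioned replicate 1 was the closest to them. The mean was 44.2 ± 13.0 CPM (SD over 3 libraries) against 75.8 ± 11.1 CPM (SD over 3 libraries) in the fresh group, a log2 change of −0.78 (standard error 0.22, 95% confidence interval −1.29 to −0.26). The adjusted p of GRHL2 was 0.073 in edgeR's fit. It was 0.007 without preconditioned replicate 1, at a log2 change of −1.06, and 0.048 when TMM was replaced by library size alone, at a log2 change of −0.94. In the assembly mOryCun1.1, NCALD and LOC127490606 overlap GRHL2. NCALD had a mean of only 1.30 CPM and a log2 change of 0.88 (adjusted p = 0.28), and LOC127490606, a long noncoding RNA, had a mean of 3.39 CPM and a log2 change of −0.81 (adjusted p = 0.20). Without the strand setting, reads of these genes and of GRHL2 cannot be told apart where they overlap.

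GRHL3, which drives the late differentiation of barrier epithelia, was expressed at 20.1, 25.4 and 16.3 CPM in the fresh libraries and at 18.8, 11.0 and 12.8 CPM in the preconditioned libraries. Preconditioned replicate 1 lay inside the fresh range and the others below it. The log2 change was −0.54 (standard error 0.26, 95% confidence interval −1.14 to 0.06, adjusted p = 0.20), and −0.80 without preconditioned replicate 1 (adjusted p = 0.042). In edgeR's fits it was only −0.36 without fresh replicate 2 (adjusted p = 0.49) and −0.38 without preconditioned replicate 2 (adjusted p = 0.45). GRHL1, the third grainyhead factor, averaged 84.7 ± 8.36 CPM in fresh and 70.8 ± 13.1 CPM in preconditioned LSCs (SD over 3 libraries each), and its log2 change was −0.26 (adjusted p = 0.30). The log2 ratio of GRHL2 to GRHL3 counts was 1.70 to 2.03 in fresh LSCs and 1.48 to 1.78 in preconditioned LSCs, which overlapped (exact permutation p = 0.2, adjusted p = 0.27).

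IRX4, an iroquois homeobox factor best known from the heart ventricle, had 0 counts in each fresh library and 1, 0 and 1 counts in preconditioned replicates 1, 2 and 3. A count of 0 allows up to 3 counts, which are 0.0820 to 0.0870 CPM in the fresh libraries, for counting error only. IRX4 did not pass the filter on low counts and was not tested. Among its relatives, IRX3 had the highest level, 9.09 ± 0.598 FPKM (SD, n = 3) in the fresh group, and a log2 change of −0.06 (adjusted p = 0.85). IRX1, IRX2, IRX5 and IRX6 were also above the filter, and none of the 5 passed the cutoffs in edgeR's test. These relatives, and GRHL1, were singled out after their values were seen.

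**Figure D3:**
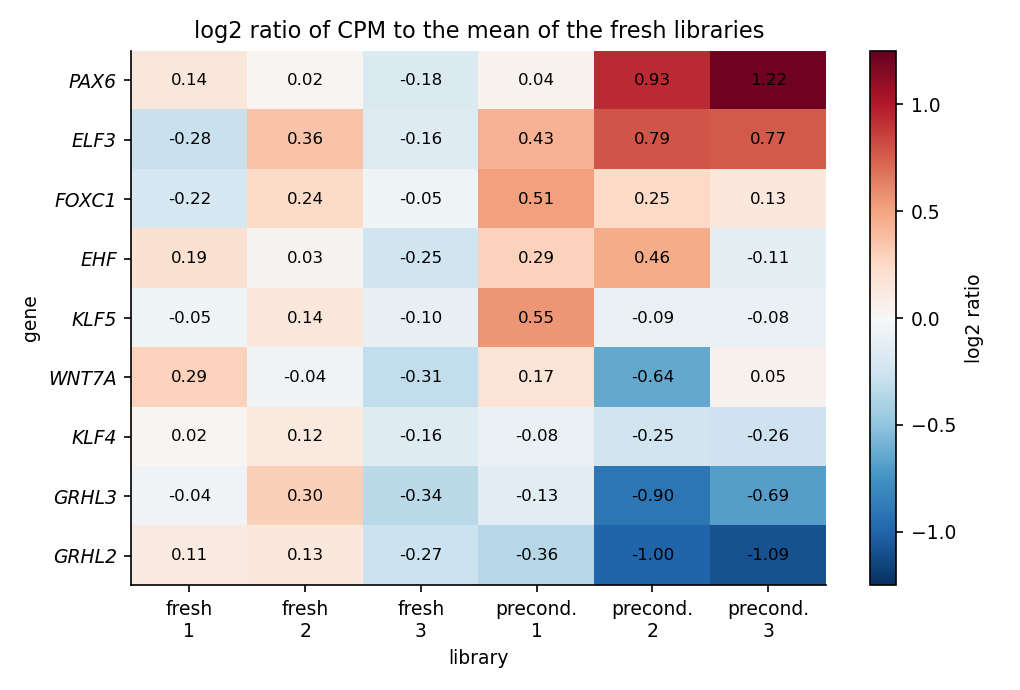
Log2 ratio of the CPM of each gene in each library to the mean CPM of the fresh libraries, for the 9 detected corneal fate genes; red is above and blue below that mean. In preconditioned replicate 3, PAX6 is at 1.22 and GRHL2 at −1.09, whereas in preconditioned replicate 1 they are at 0.04 and −0.36.

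A gene was called when its p, adjusted over all genes after Benjamini and Hochberg, did not exceed 0.05 and its log2 change reached 1 in either direction. Of the 9 tested corneal fate genes, 0 were called with edgeR's quasi-likelihood test, against 2.29% of the 15029 genes tested (1.08% higher and 1.20% lower). On the adjusted p alone, 0 of the 9 passed, against 5.08% of all tested genes (2.88% higher and 2.20% lower). At an unadjusted p under 0.05 there were 3, namely ELF3, GRHL2 and PAX6, against 30.6% of all tested genes. The DESeq2 Wald test also called 0 of them with both cutoffs, against 7.78% of its genes, and the adjusted p was at most 0.05 for the same 3 genes (0.025 for ELF3, 0.019 for GRHL2 and 0.04 for PAX6), where 19.1% of all genes with an adjusted p passed in this way. For 2 of the 9 genes there was no overlap between the groups, compared with 36.7% of all genes tested. ELF3 was the 1 gene with all preconditioned libraries above the fresh ones, which held for 17.9% of all tested genes, and GRHL2 the 1 gene with all of them below, which held for 18.8%. The median absolute log2 change was 0.31 over the 9 genes and 0.37 over all tested genes. The 3 of 9 genes at an unadjusted p under 0.05 were close to the share of all tested genes, and differences from the other shares were not tested.

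Without preconditioned replicate 1, PAX6 and GRHL2 passed both cutoffs, that is 2 of 9, compared with 9.99% of all tested genes. An adjusted p of at most 0.05 was then reached by 4 genes, PAX6, ELF3, GRHL2 and GRHL3, against 25.2% of all tested genes. Of the 9 genes, 4 lay inside the fresh range in preconditioned replicate 1, 1 in preconditioned replicate 2 and 4 in preconditioned replicate 3. The genes inside the range were not the same, since preconditioned replicate 1 had PAX6, WNT7A, KLF4 and GRHL3 there and preconditioned replicate 3 had WNT7A, FOXC1, KLF5 and EHF. The log2 ratio of PAX6 to GRHL2 counts, which does not depend on the scaling of the libraries, was 1.41, 1.28 and 1.47 in the fresh libraries and 1.78, 3.32 and 3.69 in the preconditioned libraries. This pair was chosen after its values were seen and was not tested.

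**Figure D4:**
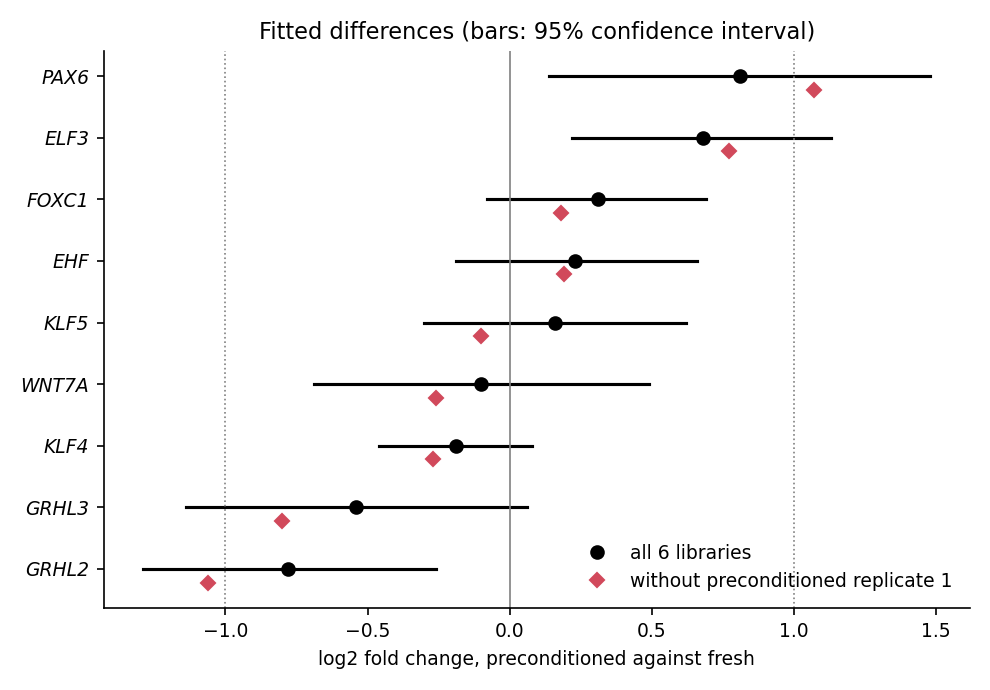
Log2 changes of the 9 tested corneal fate genes, preconditioned against fresh, in edgeR's fit to all 6 libraries (black points, with 95% confidence intervals) and without preconditioned replicate 1 (red diamonds); dotted lines mark the cutoff of 1 in each direction. The intervals of PAX6, ELF3 and GRHL2 leave out 0, and only the diamonds of PAX6 (1.07) and GRHL2 (−1.06) lie beyond the dotted lines.

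Over all tested genes, 344 were called, 163 higher and 181 lower in the preconditioned group. When TMM was replaced by library size alone, 142 were higher and 423 lower, and the median over all genes was −0.16 rather than 0.01. Among the 9 genes, KLF5 was the only one whose sign differed between these scalings. Against that median of −0.16, PAX6 was at 0.64, ELF3 at 0.50 and GRHL2 at −0.94 with library size alone.

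Genes around the corneal fate factors were grouped in lists by their known roles, and 6 of the 131 tested genes of all lists were called, which is 4.58% against 2.29% of all tested genes. Without preconditioned replicate 1, 19 of 132 were called, which is 14.4% against 9.99%. Counts of single lists are to be read beside the shares of all tested genes, which were 2.29% for calls by edgeR, 7.78% for calls by DESeq2, 30.6% for an unadjusted p under 0.05, and 9.99% for calls without preconditioned replicate 1. Genes called in that last fit but not in edgeR's fit to all libraries are named after their values were seen, other than TP63, ITGB1, ALDH1A1, TYRP1, PECAM1 and CD68. Among 10 tested genes of corneal differentiation, 1 was called in edgeR's test and 9 were not, with a median log2 change of −0.08 against 0.01 over all tested genes, and DESeq2 called 3. TKT, transketolase and an abundant corneal enzyme, fell from 1330 ± 247 to 639 ± 163 CPM (SD over 3 libraries each), a log2 change of −1.06 (adjusted p = 0.048). KRT3 was expressed at 961, 2655 and 409 CPM in the fresh libraries and at 801, 239 and 697 CPM in the preconditioned libraries, and the groups overlapped (log2 change −1.21, adjusted p = 0.30). ALDH1A1, a corneal crystallin, had 1154 ± 92.1 and 2331 ± 733 CPM (SD over 3 libraries each) and stayed just short of the cutoff on p (log2 change 1.01, adjusted p = 0.0505). Without preconditioned replicate 1, ALDH1A1 passed both cutoffs (log2 change 1.04, adjusted p = 0.033), and so did TKT and the connexin gene GJB6, both lower. KRT12 and ALDH3A1 were not analysed here.

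The list of epithelial cell state holds genes of junctions and adhesion, and also others such as GRHL1, ESRP1, ESRP2, RAB25, TGM1, ST14 and SPINT1. Of its 14 tested genes, 1 was called by edgeR and 2 by DESeq2. In edgeR's test, 7 had an unadjusted p under 0.05 (6 higher and 1 lower), against 30.6% of all tested genes. The median log2 change was 0.38. CLDN4, a tight junction claudin and a known target of GRHL2, rose from 208, 285 and 248 CPM in the fresh libraries to 493, 805 and 428 CPM in the preconditioned libraries (log2 change 1.22, adjusted p = 0.046). LAMA3, DSP and ITGB4, the most highly expressed genes of the list, had log2 changes of 0.58, 0.14 and 0.63 (adjusted p = 0.056, 0.5 and 0.071 in edgeR's fit). For LAMA3 and ITGB4, all preconditioned libraries lay above all fresh libraries. ESRP2, an epithelial splicing regulator named after its values were seen, had a log2 change of −0.70 (adjusted p = 0.056) and no overlap. CDH1 and RAB25, also named after their values were seen, had log2 changes of −0.07 and −0.10. CLDN4 remained the 1 called gene of its list without preconditioned replicate 1. It was not called without fresh replicate 2 or without preconditioned replicate 2, where 0 genes of all lists were called. Of 7 tested epidermal genes, 0 were called by edgeR and 1 by DESeq2, 3 had an unadjusted p under 0.05, against 30.6% of all tested genes, and the median was −0.42. CASP14 (log2 change −2.41) and KRTDAP (log2 change −2.68) were the 2 called, both lower, without preconditioned replicate 1. DSC1, a desmosomal cadherin named after its values were seen, had 0.151 CPM on average in the fresh and 0.531 CPM in the preconditioned group without overlap (log2 change 1.79, adjusted p = 0.078 in the fit to all libraries). KRT10, a keratin of skin, had 26.0 ± 4.45 and 40.0 ± 3.73 CPM (SD over 3 libraries each), at a log2 change of 0.62 (adjusted p = 0.061). IVL, a precursor of the cornified envelope, had 157 ± 82.0 and 69.4 ± 72.1 CPM (SD over 3 libraries each), at a log2 change of −1.18 (adjusted p = 0.40).

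Among 21 tested Wnt receptors and feedback genes, through which a ligand such as WNT7A acts, 1 rose, 1 fell and 19 did not pass, with a median of −0.003, and DESeq2 called 4. DKK1, a secreted inhibitor of Wnt signalling, rose from 1.51, 1.24 and 1.97 CPM in the fresh libraries to 6.51, 25.2 and 15.7 CPM in the preconditioned libraries (log2 change 3.33, adjusted p = 0.031). LRP5, a Wnt co-receptor, fell from 100 ± 1.72 to 46.9 ± 12.7 CPM (SD over 3 libraries each), at a log2 change of −1.09 (adjusted p = 0.037). FZD4, a Wnt receptor, had 140 ± 8.01 and 225 ± 38.3 CPM (SD over 3 libraries each), at a log2 change of 0.69 that was below the cutoff on size (adjusted p = 0.046). TCF7L2, a transcription factor of the Wnt pathway named after its values were seen, passed on p in the other direction, with 34.6 ± 5.33 and 19.4 ± 2.54 CPM (SD over 3 libraries each; log2 change −0.83, adjusted p = 0.042). DKK1 was called higher, and LRP5, TCF7 and ZNRF3 lower, without preconditioned replicate 1.

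Among 26 other epithelial transcription factors, 25 were not called, with a median of −0.20. DESeq2 called 3, and 3 were called lower without preconditioned replicate 1. TP63, the gene of the stem cell marker p63, was expressed at 246, 226 and 239 CPM in the fresh libraries and at 183, 122 and 112 CPM in the preconditioned libraries, without overlap (log2 change −0.77, adjusted p = 0.059). It was called lower without preconditioned replicate 1 (log2 change −1.03, adjusted p = 0.004). Of 20 tested relatives from the same gene families, 0 were called by edgeR, by DESeq2 and without preconditioned replicate 1, 2 had an unadjusted p under 0.05 (KLF13 and ELF2), and the median was 0.10. KLF13, named after its values were seen, had a log2 change of 0.65 at an adjusted p of 0.049, below the cutoff on size. ETS1 had a log2 change of −0.42 (adjusted p = 0.28).

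**Figure D5:**
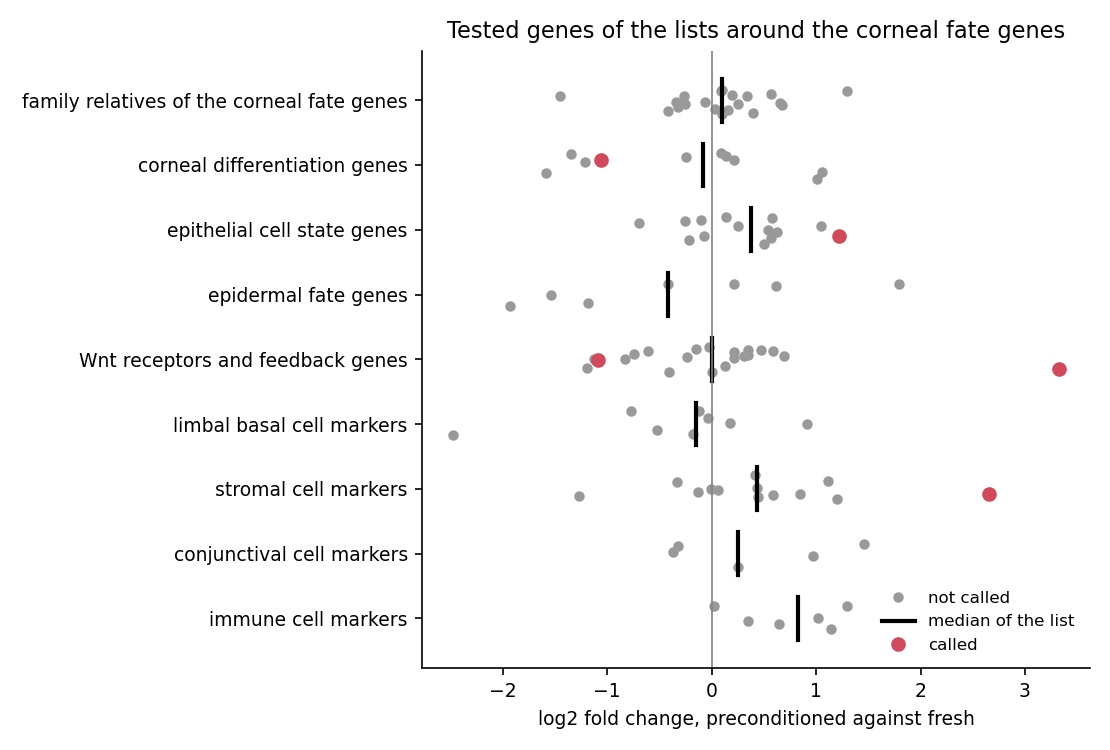
Log2 changes, preconditioned against fresh, of the tested genes of the lists with at least 5 tested genes, other than the epithelial transcription factors; red points passed both cutoffs, grey points did not, and black bars are medians. The red points are TKT, CLDN4, LRP5, DKK1 and COL1A1.

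Markers of other cells were read in the same libraries. Of 13 stromal markers, 1 was called by edgeR and 2 by DESeq2. The former was COL1A1, which rose from 91.3 ± 29.8 to 578 ± 100 CPM (SD over 3 libraries each; log2 change 2.66, adjusted p = 0.015). None of the conjunctival, immune, melanocyte and endothelial markers was called in edgeR's test, in which 0, 1, 1 and 0 of them had an unadjusted p under 0.05, and DESeq2 called 0, 1, 1 and 0. Without preconditioned replicate 1, 3 of these markers were called higher, namely CD68 (log2 change 1.45) of the immune list, TYRP1 (log2 change 3.13) of the melanocyte list and PECAM1 (log2 change 1.77) of the endothelial list. All 6 tested immune markers had a log2 change above 0 in edgeR's fit to all libraries, at a median of 0.83. Other markers of the melanocyte and endothelial lists went in both directions. CDH5, below the filter on low counts, had 0, 2 and 3 counts in the fresh and 4, 7 and 6 in the preconditioned libraries. Among those lower in the preconditioned libraries, MITF and EGFL7 were tested and not called, and KIT, VWF and KDR did not pass the filter on low counts. MITF, which made up most of the melanocyte sum in the fresh libraries, averaged 4.68 ± 0.665 and 3.06 ± 0.776 CPM (SD over 3 libraries each; adjusted p = 0.20 in edgeR's fit to all libraries), and KIT had 4, 12 and 8 counts in the fresh and 0, 0 and 2 in the preconditioned libraries. VWF had 0, 6 and 8 counts against 1, 0 and 0, KDR had 5, 0 and 6 counts against 1, 0 and 0, and EGFL7 had a log2 change of −0.70 (adjusted p = 0.44). COL6A1 (log2 change 1.51) joined COL1A1 among the stromal markers called higher without preconditioned replicate 1. PAX6 and GRHL2 passed both cutoffs in this same fit. The summed CPM of 6 conjunctival markers was 2658 to 4696 in fresh LSCs and 1913 to 4668 in preconditioned LSCs, most of it from KRT19. The 7 immune markers summed to 104 to 136 and 127 to 320 CPM, with CD3E at no more than 3 counts in any library. Most of this sum came from CD68, a lysosomal protein of macrophages, at 97.6, 129 and 93.4 CPM in the fresh libraries and 121, 300 and 288 CPM in the preconditioned libraries. The next highest immune marker, CD14, had means of only 5.70 CPM in the fresh and 5.79 CPM in the preconditioned group. As for PAX6, preconditioned replicate 1 lay inside the fresh range of CD68 and the other preconditioned libraries above it. The 8 melanocyte markers summed to 2.77 to 6.45 CPM over all 6 libraries, and TYR, PMEL and MLANA had no more than 3 counts in any library. The 7 endothelial markers summed to 3.29 to 3.51 CPM in fresh LSCs and 1.22 to 13.7 CPM in preconditioned LSCs, with TEK at no more than 3 counts in any library. Among 8 tested limbal basal markers 0 were called by edgeR and 1 by DESeq2, 4 had an unadjusted p under 0.05, against 30.6% of all tested genes, and the median was −0.15. ITGB1 was called higher and TP63 lower without preconditioned replicate 1. The part of any of these cell types in the values of the corneal fate genes was not tested.

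The genes outside the panel whose log2 CPM was most like that of PAX6 over the 6 libraries were MSL1 (Pearson's r 0.998), TWSG1 (0.997) and FBXO8 (0.997). With 6 libraries that share the group difference, 259 genes had an r over 0.95 with PAX6. Those most like WNT7A were TBC1D8 (0.978), RANBP17 (0.969) and SMARCE1 (0.969), and 14 genes had an r over 0.95 with it.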

How the data were processed

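Reads were aligned by the authors with hisat2, and the raw counts per gene that they deposited came from htseq-count. The deposited FPKM values are these counts over the library's sum on genes and over 1 length per gene (within 0.1% for all 20435 genes that could be checked). The genome build, annotation and strand setting were not given in the sources used here. Of 22177 NCBI gene identifiers, 19462, with those of all 10 corneal fate genes, matched RefSeq's gene table for mOryCun1.1, used here only to find overlapping genes.

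Counts were filtered with filterByExpr, scaled by TMM and tested with edgeR 4.0.16 in R 4.3.3 (quasi-likelihood test, robust, condition as the only factor), with Benjamini-Hochberg adjustment over 15029 genes. Standard errors were derived from the F statistic. Between libraries of a group, the chi-square of counts per degree of freedom was at least 48.1, so that each library counted as 1 sample. The spread between libraries was thus larger than the counting error at this depth. The corneal fate genes and the lists were chosen with earlier results of these data known. Of each list, called genes were named first, then those of the highest mean CPM, at most 4 in all. Likeness was measured by Pearson's r of log2 CPM with a prior count of 2.

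The alternatives were DESeq2 1.42.0, its size factors, library size alone, 2 other filters, a block by replicate number, each library left out in turn, no cutoff on the fold change, and limma 3.58.1 with a trend, on log2(FPKM + 1) or log2(FPKM + 0.1). Leaving IRX4 out of the count was added after seeing the data. The fits were tested on simulated data before use. Of 200 genes changed in the simulation, edgeR recovered 173 with 7 false calls, and DESeq2 recovered 188 with 44 false calls. No sequences were used. The values of 1 gene of the lists are not reported here.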

Additional observations from a re-analysis of the deposited data

How the results depend on the processing

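No corneal fate gene passed both cutoffs under any alternative except the fit without preconditioned replicate 1, in which 2 did (0 to 2 when each library was left out). The direction of PAX6, FOXC1, KLF4, EHF, ELF3, GRHL2 and GRHL3 was kept under all 14 alternatives. That of WNT7A turned without fresh replicate 1 (0.07) and without preconditioned replicate 2 (0.11), and lay between −0.26 and 0.11 when each library was left out. That of KLF5 turned with library size alone (−0.003), with limma on log2(FPKM + 1) and on log2(FPKM + 0.1) (−0.04 each), and without preconditioned replicate 1 (−0.10). The cause was not tested. The adjusted p of PAX6 ranged from 0.006 to 0.27, that of GRHL2 from 0.007 to 0.22 and that of ELF3 from 0.025 to 0.22.

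The 344 calls over all genes became 1190 with DESeq2, 565 with library size alone, 590 with log2(FPKM + 0.1), 763 without a fold change cutoff and 14 to 1546 when each library was left out. The 6 calls in the lists became 18 with DESeq2, 10 each with library size alone, with no filter on low counts, with log2(FPKM + 0.1) and without a fold change cutoff, and 0 to 19 when each library was left out. With the replicate number as a block, 30 genes, 1 gene of the lists and 0 corneal fate genes were called. Libraries of the same number did not deviate together (mean correlation −0.0827 across genes). Whether they share an animal was not given, and this correlation cannot decide it. Depth limits the comparison of IRX4, which had at most 1 count in any library.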
